A study of Mus musculus with 20 samples.

Results

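Blood stem cells that carried 2 disrupted copies of Runx2 were compared with stem cells that carried 1, in 3 homozygous (hom) against 3 heterozygous (het) RNA libraries chosen by their genotype labels. These 6 libraries were taken from 20 samples in the series, 18 of them RNA libraries. All cells of the comparison came from mouse bone marrow and were cultured, per the labels. The sort kept lineage-negative cells with Sca1, Kit, CD150 and CD201 on their surface, a gate for haematopoietic stem cells (HSC). The groups used are hom HSC, het HSC and, as background for the spread and for levels, 3 wild-type (WT) HSC libraries with both copies of the gene intact. Homozygous and heterozygous progenitors (HPC, the Kit+ Sca1+ cells without CD201 and CD150) were set beside them. The design text names floxed mice as well as CRISPR disruption, and the labels do not say which of the 2 methods made a given library. The sources used here name no Cre driver, strain, age, length of culture or pooling of animals. Nothing in the labels says whether replicates 1, 2 and 3 of a genotype were separate animals, cultures or preparations, so p-values measure only the spread between these libraries, which may be technical. Because the samples are bulk RNA, fewer cells of a type and less RNA per cell cannot be told apart.

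RUNX2 is a transcription factor that pairs with CBFB and binds a short DNA motif, which RUNX1 and RUNX3 also bind. It is best known as the factor without which osteoblasts do not form, RUNX1 is required for blood stem cells to arise in the embryo, and RUNX3 acts in T cells and natural killer cells. Since het cells still hold an intact copy, the comparison of hom with het asks which transcripts move when the last copy is disrupted.

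Runx2 itself (chromosome 17, 44495987 to 44814797, mm10) followed the labels in each library. It had 27.5, 30.4 and 26.7 CPM in hom libraries, against 90.0, 96 and 87.6 CPM in het libraries and 126, 133 and 130.4 CPM in WT libraries, where CPM are counts scaled to library size. The genotypes did not overlap, and Runx2 fell in hom relative to het, with a change of log2 -1.69 ± 0.08 (SE; edgeR adjusted p = 2.7e-08). Counts over the whole gene take in exons outside the disrupted part, which the sources used here do not name, so the level left in hom libraries does not say how much working protein was left. The other RUNX genes stayed close to the het level. Runx1 had 201, 209.6 and 219 CPM in hom libraries, against 203, 199 and 184 CPM in het libraries (log2 0.10 ± 0.07 SE, edgeR adjusted p = 0.613). Runx3, which has an annotated copy on an alternate contig, had 146, 150.4 and 147 CPM in hom libraries, against 142, 134 and 144 CPM in het libraries (log2 0.08 ± 0.06 SE, edgeR adjusted p = 0.671). Cbfb, the shared partner, had 191, 171 and 158 CPM in hom libraries, against 159.6, 169 and 167 CPM in het libraries (log2 0.07 ± 0.07 SE, edgeR adjusted p = 0.769). None of the 3 passed, and of the 12 tested members of the list of RUNX genes and partners other than Runx2, none was called.

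The core of the RUNX motif was looked for as TGTGGT or TGCGGT on either strand in RefSeq promoter windows (GRCm38.p6, 250 bases before to 50 after each annotated gene start), to show whether the genes named here carry it. It stood in 7362 of the 32851 windows of all genes (22.4%), in 3090 of 14279 windows of the genes tested (21.6%), in 2 of 12 windows of the 12 lower genes named below and in 0 of 7 windows of the 12 higher ones. Among all genes named by the rule it stood in 44 of 169 windows (26%). Sequences were matched for 11 of the 12 lower and 6 of the 12 higher genes. The 2 with a match are Runx2 and Tnip3, an inhibitor of NF-kappaB signalling. Il18r1, the interleukin-18 receptor chain, Tcf7 and Jun, all described below, were picked for the search as well. Of these only Il18r1 had a match. The windows with a match are printed. Each reads 5′ to 3′ on the strand of its gene, and capitals mark the core or its complement.
Runx2 (chr17:44814578-44814877, minus strand): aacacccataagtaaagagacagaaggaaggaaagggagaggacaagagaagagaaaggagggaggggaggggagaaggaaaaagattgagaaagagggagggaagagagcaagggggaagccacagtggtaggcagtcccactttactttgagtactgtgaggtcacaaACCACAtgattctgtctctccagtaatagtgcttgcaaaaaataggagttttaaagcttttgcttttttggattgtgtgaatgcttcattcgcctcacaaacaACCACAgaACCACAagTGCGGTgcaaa
Tnip3 (chr6:65590148-65590447, plus strand): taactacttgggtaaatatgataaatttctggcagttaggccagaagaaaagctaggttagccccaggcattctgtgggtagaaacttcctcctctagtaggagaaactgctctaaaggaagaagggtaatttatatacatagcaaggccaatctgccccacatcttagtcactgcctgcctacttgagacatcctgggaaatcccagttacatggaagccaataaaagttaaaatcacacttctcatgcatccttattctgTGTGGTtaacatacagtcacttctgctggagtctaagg
Il18r1 (chr1:40465371-40465670, plus strand): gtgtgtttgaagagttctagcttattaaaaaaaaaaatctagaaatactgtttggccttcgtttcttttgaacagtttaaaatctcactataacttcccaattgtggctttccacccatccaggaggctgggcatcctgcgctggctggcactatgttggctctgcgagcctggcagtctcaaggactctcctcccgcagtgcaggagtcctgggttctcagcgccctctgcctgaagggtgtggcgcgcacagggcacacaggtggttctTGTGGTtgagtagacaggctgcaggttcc
The Runx2 window held 4 matches, 3 of them within the first 50 bases of the transcript (first bases at 24, 32 and 40 after the start) and 1 at position -80 relative to it. Il18r1 held 1 match, 22 bases after the start and in 1 of its 3 windows, and Tnip3 held 1, 13 bases after the start. A match of these letters is a description of the window and does not show binding.

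The libraries held 18050298 to 21728340 counts in hom and 20270575 to 27061457 in het, and mitochondrial genes took 1.56% to 1.72% of them in hom and 1.46% to 1.74% in het. A level of 3 counts, the limit that a count of 0 allows, equals 0.138 to 0.166 CPM in hom and 0.111 to 0.148 CPM in het, for counting error only. The sort markers were present in all of them. Procr, which encodes CD201, had 38.1, 56.4 and 67.3 CPM in hom libraries, against 66.9, 67 and 66.5 CPM in het libraries. Slamf1, which encodes CD150, had 17.2, 21.1 and 17 CPM in hom libraries, against 19.4, 20.2 and 22 CPM in het libraries, and Kit, the receptor for stem cell factor, had 481, 535 and 558 CPM in hom libraries, against 512, 541 and 479.5 CPM in het libraries. Procr was lowest in hom library 1, and none of the 3 differed beyond the spread (adjusted p = 0.522, 0.652 and 0.887). Ly6a, which encodes Sca1, was listed at 0 counts in all 18 RNA libraries and cannot serve as a check.

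The hom libraries differed from each other more than het or WT libraries did. Fitted within each genotype, the coefficient of variation between libraries was 14.9% in hom, against 10.4% in het and 7.91% in WT HSC. In HPC the same measure was 7.63% in hom and 6.97% in het. Hom libraries 1 and 3 (replicates 1 and 3 of the labels) stood at opposite ends. The root mean square difference in log2 CPM over all genes tested was 0.61 between them, 0.43 between hom 1 and 2 and 0.48 between hom 2 and 3, against 0.43 to 0.47 among het libraries. The 9 differences between a hom and a het library were 0.45 to 0.60, so hom 1 and hom 3 were farther from each other than either was from any het library. Among 10905 genes with at least 5 CPM in a hom library, 56 lay at least 1 log2 unit away from both other hom libraries in hom 1, 3 in hom 2 and 82 in hom 3. In het the corresponding counts were 9, 7 and 10, and in WT 4, 14 and 6. Runx2 did not take part in this spread, as its highest and lowest hom levels were 30.4 and 26.7 CPM.

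**Figure D1:**
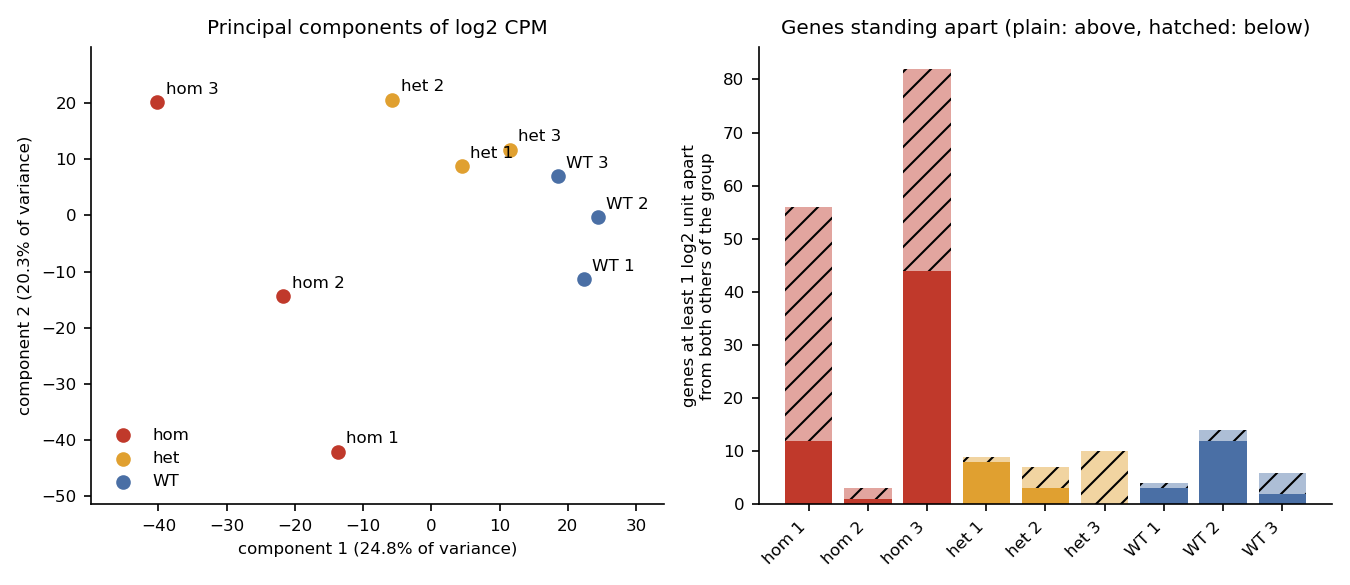
Left, the 9 HSC libraries on the first 2 principal components of log2 CPM (24.8% and 20.3% of the variance), coloured by genotype and labelled by replicate. Right, the number of genes at least 1 log2 unit above (plain) or below (hatched) both other libraries of the same genotype; hom 1 and hom 3 reach 56 and 82 genes, and no het or WT library exceeds 14.

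Genes named by their gap showed what set the hom libraries apart. Several transcripts were far lower in hom 3 than in hom 1 and hom 2. C3, the central complement protein, had 78.9, 35.1 and 4.93 CPM in hom libraries, against 28.4, 13.1 and 15.3 CPM in het libraries. Ptprz1, a receptor phosphatase, had 8.15, 4.39 and 0.156 CPM in hom libraries, against 5.53, 2.21 and 3.58 CPM in het libraries, and the chemokine receptor gene Ccr10 had 5.92, 3.57 and 0.259 CPM in hom libraries, against 4.2, 1.13 and 2.79 CPM in het libraries. For these genes the het libraries lay between the extremes of the hom libraries. In the other direction, Fos, an immediate early transcription factor gene, had 4.97, 4.07 and 37.8 CPM in hom libraries, against 48, 44.8 and 56.6 CPM in het libraries, so that hom 3 was just below the lowest het library and the other 2 hom libraries were far below it. Serpinb2, a protease inhibitor, had 1.73, 1.37 and 7.89 CPM in hom libraries, against 0.111, 1.52 and 0.166 CPM in het libraries. Hom 1 stood out through Thbs1, thrombospondin 1, with 12.4, 1.51 and 0.83 CPM in hom libraries, against 0.921, 0.885 and 1.46 CPM in het libraries, and through Cybb, a subunit of the phagocyte oxidase, with 22.5, 9.93 and 2.34 CPM in hom libraries, against 9.58, 4.87 and 7.98 CPM in het libraries. It was the lowest for Pgr, the progesterone receptor, with 1.56, 6.68 and 8.36 CPM in hom libraries, against 18.7, 17.2 and 17.8 CPM in het libraries, and for Rasgrp1, an activator of RAS in lymphocytes, with 1.34, 4.94 and 8.15 CPM in hom libraries, against 5.56, 5.36 and 5.07 CPM in het libraries. All 3 hom libraries lay below all het libraries for Pgr, while for Rasgrp1 the het level lay inside the range of the hom libraries. Hom 2 had few such genes. The peptide transporter gene Slc15a2 had 17.2, 2.15 and 30.8 CPM in hom libraries, against 10.8, 11.7 and 22.1 CPM in het libraries, but this gene also varied among WT libraries (52.5, 0 and 20.9 CPM). The other genes named by this rule were Arnt2, Grap, Ttn and Gpr25 above and Speg, Sdc2, Ttc12 and Fn3k below in hom 1, Xlr3b, Cpne7, Rwdd3, Mfsd2b, Trim7 and Chil5 above and Cd28, Fn3krp, Prex2, Apbb1 and Plac8 below in hom 2, and Abcg3, Gbp8, Mmp16 and Pkhd1l1 above and Gpr25, Cadm3 and Grap below in hom 3. Their gaps to the nearest hom library ran between log2 0.57 and log2 2.78.

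In the edgeR quasi-likelihood fit of the 9 HSC libraries, 2 of 14959 genes were called at an adjusted p under 0.05. This was 0.0134% of genes tested, with 1 gene or 0.00668% in each direction. The 2 genes were Runx2, which fell, and Gm4258, a predicted gene (chromosome 1, 137898464 to 137963020, mm10), which rose. Gm4258 had 16.1, 18.5 and 18.4 CPM in hom libraries, against 9.32, 9.49 and 8.9 CPM in het libraries and 12.2, 13.7 and 10.7 CPM in WT libraries, a change of log2 0.94 ± 0.13 (SE; edgeR adjusted p = 0.04) in hom relative to het. Its call was lost on leaving out hom library 2, WT library 1 or 2, or any 1 het library, and also with the replicate block, in limma voom without weights and with the 6 hom and het libraries alone. The log2 values in these 9 fits ran between 0.90 and 0.95. Another 11 genes had an adjusted p under 0.06, and 51 lay under 0.1, of which 27 were higher and 24 lower in hom. At an unadjusted p under 0.05 there were 1752 genes (11.7%), 849 higher and 903 lower. The hom and het libraries did not overlap for 2396 genes (16%), 1114 with hom higher (7.45%) and 1282 with hom lower (8.57%).

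The number of calls depended on which hom libraries entered the fit and on how the spread was modelled. Without hom library 3, 408 of 15308 genes were called (2.67%), 165 higher (1.08%) and 243 lower (1.59%). Without hom library 1 the count was 8, and without hom library 2 it was 2. DESeq2 called 160 genes (1.07%), 80 in each direction (0.535% each). Limma voom with sample quality weights called 614 (4.1%), 249 higher (1.66%) and 365 lower (2.44%). The weights it estimated were 0.49, 4.39 and 0.46 for hom libraries 1, 2 and 3, against 1.33, 0.85 and 0.55 for het libraries, so this fit rests mainly on hom library 2. Of the 160 DESeq2 calls, 144 were among the 614 (90% of 160, 23.5% of 614), and of the 408 made without hom library 3, 274 were (67.2% of 408, 44.6% of 614).

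**Figure D2:**
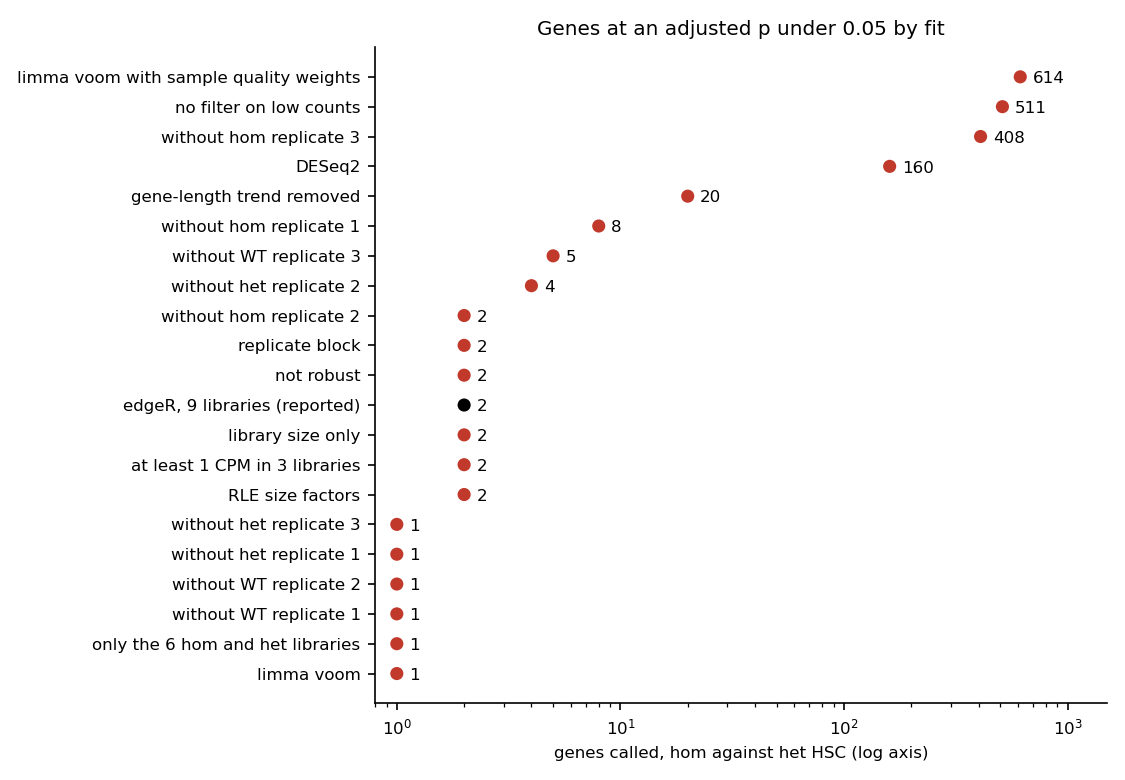
Number of genes called in hom against het HSC (log axis) under each fit, with the reported fit in black. The counts run between 1 and 614, and the fit without hom replicate 3 gives 408 while those without hom replicates 1 and 2 give 8 and 2.

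The genes closest to the threshold with a higher level in hom had varied roles. Ly9, a receptor of the SLAM family, had 45.5, 44.3 and 42.1 CPM in hom libraries, against 24.4, 32.5 and 29.4 CPM in het libraries (log2 0.61 ± 0.11 SE, edgeR adjusted p = 0.055). All hom libraries exceeded all het libraries. Tespa1, which takes part in T-cell receptor signalling during thymocyte development, had 94.3, 91.4 and 68.2 CPM in hom libraries, against 58.5, 49.9 and 56.3 CPM in het libraries (log2 0.62 ± 0.12 SE, edgeR adjusted p = 0.0691). Siglecg, an inhibitory lectin of B cells, had 14.4, 12.4 and 15.2 CPM in hom libraries, against 8.58, 8.9 and 6.82 CPM in het libraries (log2 0.79 ± 0.15 SE, edgeR adjusted p = 0.0691), and Tlr7, the endosomal sensor of single-stranded RNA, had 20.0, 11.9 and 13.8 CPM in hom libraries, against 6.23, 7.62 and 8.32 CPM in het libraries (log2 1.04 ± 0.20 SE, edgeR adjusted p = 0.0691). Tlr7 was highest in hom library 1, and Tespa1 was lowest in hom library 3. Ifi209 and Ifi206 belong to an interferon-inducible family of DNA sensors. Ifi209 had 9.15, 6.96 and 5.86 CPM in hom libraries, against 1.11, 3.2 and 1.87 CPM in het libraries (log2 1.85 ± 0.34 SE, edgeR adjusted p = 0.0691), and Ifi206 had 44.7, 35.8 and 40.6 CPM in hom libraries, against 18.2, 27.3 and 18.7 CPM in het libraries (log2 0.92 ± 0.17 SE, edgeR adjusted p = 0.07). Both stood above het in all hom libraries, with Ifi209 lowest in hom library 3 and Ifi206 lowest in hom library 2.

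Tspoap1, whose protein binds a mitochondrial outer membrane protein and which has an annotated copy on an alternate contig, had 8.48, 11.4 and 16.3 CPM in hom libraries, against 4.94, 5.01 and 5.11 CPM in het libraries (log2 1.27 ± 0.22 SE, edgeR adjusted p = 0.0584). Its 3 het libraries were almost equal, and hom library 3 was the highest. Kcnq1ot1, the long noncoding RNA of an imprinted domain, had 49.1, 53.5 and 48.5 CPM in hom libraries, against 28.1, 36 and 21.4 CPM in het libraries (log2 0.82 ± 0.15 SE, edgeR adjusted p = 0.0691). Some of the differences were small and even across hom libraries. Plec, which encodes the cytoskeletal linker plectin, had 379, 382 and 379 CPM in hom libraries, against 301, 315 and 280.4 CPM in het libraries (log2 0.35 ± 0.07 SE, edgeR adjusted p = 0.07). Kmt2d, a histone methyltransferase of enhancers, had 312, 314 and 322 CPM in hom libraries, against 254, 256 and 205 CPM in het libraries (log2 0.41 ± 0.08 SE, edgeR adjusted p = 0.0772), and Mgat5, an enzyme that branches N-glycans, had 88.3, 83.6 and 81.4 CPM in hom libraries, against 65, 69 and 63.6 CPM in het libraries (log2 0.36 ± 0.07 SE, edgeR adjusted p = 0.0818). None of these genes was called in the 9-library fit of edgeR.

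Beside Runx2, the genes with a lower level in hom were more mixed. Mpzl1, a cell surface glycoprotein that recruits the phosphatase SHP2, had 61.1, 67.9 and 64.6 CPM in hom libraries, against 98.4, 88.6 and 93.2 CPM in het libraries (log2 -0.53 ± 0.08 SE, edgeR adjusted p = 0.055). Ccdc60, a coiled-coil protein gene, had 3.96, 5.45 and 3.79 CPM in hom libraries, against 10.1, 8.6 and 9.77 CPM in het libraries (log2 -1.10 ± 0.18 SE, edgeR adjusted p = 0.055), and Tcaf1, a regulator of a cation channel, had 3.52, 4.17 and 3.32 CPM in hom libraries, against 7.59, 7.47 and 7.36 CPM in het libraries (log2 -1.02 ± 0.17 SE, edgeR adjusted p = 0.055). For the 3 genes every hom value lay below every het value. Fkbp9, a prolyl isomerase of the endoplasmic reticulum, had 35.7, 41.3 and 47.8 CPM in hom libraries, against 60.9, 63.7 and 59.9 CPM in het libraries (log2 -0.56 ± 0.10 SE, edgeR adjusted p = 0.055). Tnip3 had 65.3, 59.9 and 51 CPM in hom libraries, against 85.8, 77.4 and 86.6 CPM in het libraries and 96.3, 102 and 89.7 CPM in WT libraries (log2 -0.50 ± 0.09 SE, edgeR adjusted p = 0.0691). Itsn1, an endocytic scaffold protein gene, had 180.3, 153 and 141 CPM in hom libraries, against 229.9, 221 and 201 CPM in het libraries and 256, 255 and 252 CPM in WT libraries (log2 -0.46 ± 0.09 SE, edgeR adjusted p = 0.0691). For Tnip3 and Itsn1 all WT libraries also exceeded all het libraries. S100a11, a calcium-binding protein gene, had 88, 85.6 and 103 CPM in hom libraries, against 118, 126 and 139 CPM in het libraries (log2 -0.47 ± 0.09 SE, edgeR adjusted p = 0.0691), and Prnp, the prion protein gene, had 45.9, 56.4 and 54.8 CPM in hom libraries, against 69, 72.8 and 69.4 CPM in het libraries (log2 -0.43 ± 0.08 SE, edgeR adjusted p = 0.07). Actr3b, a form of a subunit of the ARP2/3 actin complex, had 8.32, 13.5 and 9.19 CPM in hom libraries, against 20.5, 17.8 and 19.8 CPM in het libraries (log2 -0.90 ± 0.17 SE, edgeR adjusted p = 0.0691). The remaining 2 of the 12 lower genes were ribosomal protein genes. Rps27 had 297, 319.6 and 289.5 CPM in hom libraries, against 454, 435 and 492 CPM in het libraries (log2 -0.61 ± 0.10 SE, edgeR adjusted p = 0.055), and Rpl39 had 337, 364 and 309 CPM in hom libraries, against 478, 456 and 491 CPM in het libraries (log2 -0.50 ± 0.10 SE, edgeR adjusted p = 0.0691). For these 2, 2 of the 3 WT libraries were closer to hom than to het (Rps27 339, 328 and 447 CPM, Rpl39 370.3, 348 and 454 CPM in WT).

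**Figure D3:**
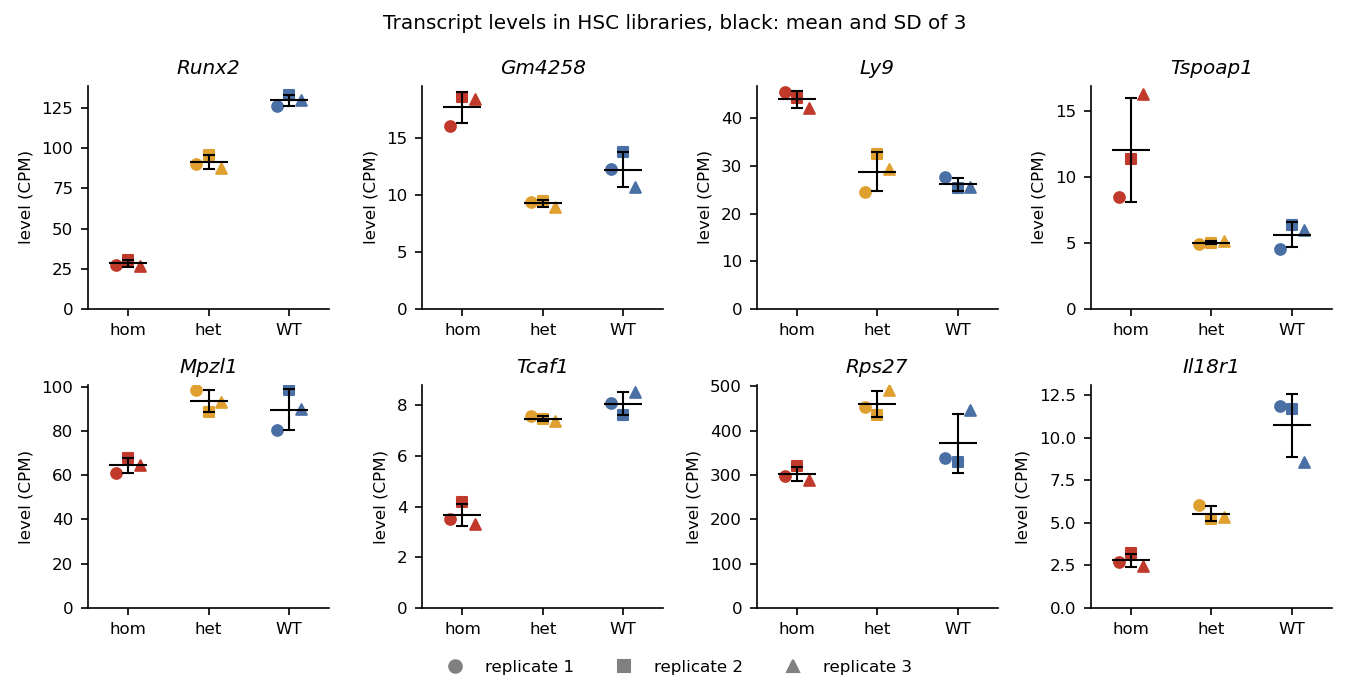
CPM of 8 genes in each HSC library by genotype (symbols are replicates 1 to 3; black bars are the mean and SD of 3 libraries; every axis starts at 0). Runx2 and Gm4258 were called; the other 6 did not overlap between hom and het and had adjusted p values between 0.055 and 0.0818.

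Gene lists were read by the number of members past an unadjusted p under 0.05, set beside 5.68% of all genes tested for higher and 6.04% for lower, and by the mean of their log2 CPM in each library relative to the mean of the 3 het libraries. No member of any list other than Runx2 was called in the 9-library fit. DESeq2 and the weighted voom fit called some list members: 3 and 4 interferon genes higher, 2 and 6 HSC surface genes lower, 2 and 4 ribosomal protein genes lower, and 2 and 3 T-cell genes lower. For the S phase and MYC lists, DESeq2 called 0 genes and the weighted fit called 1 and 2 higher. In some lists the hom libraries stood apart from each other, in some they stood mostly on one side of het, and others showed neither pattern.

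DNA replication, MYC and cholesterol synthesis genes had their highest hom levels in hom library 1. All 34 tested genes of the S phase list, which holds DNA replication genes, were highest in hom 1 among the hom libraries, against 37.1% of all genes tested. The list means were 0.43, 0.12 and -0.07 in hom libraries 1, 2 and 3 and 0.02, -0.07 and 0.05 in het libraries. WT libraries, at 0.33, 0.22 and 0.15, were also above het. At an unadjusted p under 0.05, 7 of the 34 were higher in hom and 0 lower, with a median of log2 0.17 beside 0.00 over all genes. Pole, the catalytic subunit of a replicative DNA polymerase, had 176, 151 and 138 CPM in hom libraries, against 136, 127 and 125 CPM in het libraries (log2 0.26 ± 0.09). The count was 24 higher without hom library 3 and 1 higher without hom library 1, where 9.18% and 4.96% of all genes passed in that direction.

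The MYC and ribosome biogenesis list behaved the same way, with means of 0.47, 0.17 and -0.07 in hom libraries and 0.04, -0.08 and 0.04 in het libraries. WT libraries, at 0.29, 0.23 and 0.13, were again above het. Of its 30 genes, 29 were highest in hom 1, and 9 were higher and 0 lower at an unadjusted p under 0.05 (median log2 0.19). Myc had 328, 296 and 261 CPM in hom libraries, against 257, 204 and 243 CPM in het libraries (log2 0.33 ± 0.11). Utp20, a component of the machinery that processes ribosomal RNA, had 116, 98 and 83.9 CPM in hom libraries, against 83.2, 74.9 and 65.7 CPM in het libraries (log2 0.41 ± 0.13). Without hom library 3 the count was 23 and without hom library 1 it was 4. Genes of cholesterol synthesis and other SREBP targets had means of 0.31, 0.16 and -0.09 in hom and 0.04, -0.07 and 0.02 in het libraries. In WT libraries they were 0.15, 0.23 and 0.02. Of 26, 24 were highest in hom 1, and 2 passed, both higher (17 without hom library 3, 1 without hom library 1). Fasn, fatty acid synthase, had 809, 657 and 561 CPM in hom libraries, against 549, 507 and 491 CPM in het libraries (log2 0.39 ± 0.11). The nuclear respiratory chain genes were also highest in hom 1, but with no shift between the groups, with means of 0.15, -0.05 and -0.22 in hom and -0.04, -0.09 and 0.13 in het libraries, 29 of 30 highest in hom 1 and 0 higher and 2 lower past the unadjusted threshold.

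The lists of stem cell genes ran the opposite way, with their highest hom means in hom library 3. The list of HSC surface and endothelial-type genes had means of -0.56, -0.30 and 0.01 in hom libraries, -0.03, 0.03 and -0.01 in het libraries and -0.23, -0.12 and -0.05 in WT libraries. Among its 27 tested genes, 24 were highest in hom 3 among the hom libraries, against 40.5% of all genes tested. At an unadjusted p under 0.05, 0 were higher and 6 lower in hom (median log2 -0.21). Without hom library 3, 17 were lower and 1 higher, beside 9.25% and 9.18% of all genes, and without hom library 1, 3 were lower and 0 higher, beside 5.14% and 4.96%. Pdzk1ip1, a membrane protein gene with high levels in stem cells, had 23.3, 31.5 and 41.7 CPM in hom libraries, against 49, 48.8 and 51 CPM in het libraries (log2 -0.62 ± 0.16). Ifitm1, an interferon-inducible membrane protein gene, had 814, 917 and 968 CPM in hom libraries, against 1144, 1162 and 1389 CPM in het libraries (log2 -0.45 ± 0.10), and Ctnnal1, a gene related to alpha-catenin, had 20.7, 20.4 and 27 CPM in hom libraries, against 31, 29 and 28.4 CPM in het libraries (log2 -0.38 ± 0.11). For these 3 genes all hom libraries were below all het libraries, and Pdzk1ip1 in het was also above all WT libraries (30.9, 33.8 and 40.5 CPM).

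The HSC transcription factors had means of -0.26, -0.08 and 0.06 in hom and -0.01, 0.04 and -0.02 in het libraries, and 21 of 27 were lowest in hom 1. None of the 27 passed the unadjusted threshold in the 9-library fit, and 8 were lower without hom library 3. Mecom, a transcription factor required for stem cell maintenance, had 72.5, 93.5 and 122 CPM in hom libraries, against 109, 136 and 103 CPM in het libraries (log2 -0.27 ± 0.17), and Hoxb5, a homeobox gene of long-term stem cells, had 1.9, 3.43 and 4.98 CPM in hom libraries, against 4.09, 5.31 and 5.2 CPM in het libraries (log2 -0.49 ± 0.29). Both overlapped between hom and het through hom library 3. The neutrophil granule list (8 tested genes) had means of 1.02, 0.25 and -0.24 in hom and 0.15, -0.33 and 0.19 in het libraries, with WT at 0.60, 0.64 and 0.23. Of the 8, 5 were highest in hom 1, and 5 had a positive and 3 a negative log2 value. Elane, neutrophil elastase, had 2.68, 0.503 and 0.156 CPM in hom libraries, against 0.479, 0.197 and 0.748 CPM in het libraries, and Mpo, which has a second annotated copy, had 45.9, 22.6 and 11.1 CPM in hom libraries, against 14, 5.95 and 14.6 CPM in het libraries. Ltf, lactoferrin, went the other way, with 8.65, 6.64 and 9.19 CPM in hom libraries, against 9.21, 12 and 11.2 CPM in het libraries, and all hom libraries were below all het libraries. Elane was at the level of 3 counts in hom library 3 (0.158 CPM there) and near it in het library 2 (0.148 CPM there). List means of other maturing cells were mixed. In hom libraries 1, 2 and 3 they were -0.03, 0.21 and -0.01 for the erythroid list and 0.19, 0.20 and 0.27 for the megakaryocyte and platelet list. Other lists were highest in hom library 1 and lowest in hom library 3. These were mast cell and basophil (0.87, 0.65 and 0.25), eosinophil (1.63, 1.29 and 0.00, 2 tested genes) and monocyte and macrophage (0.16, 0.00 and -0.21). The part of neutrophil-type cells in the differences above was not tested.

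**Figure D4:**
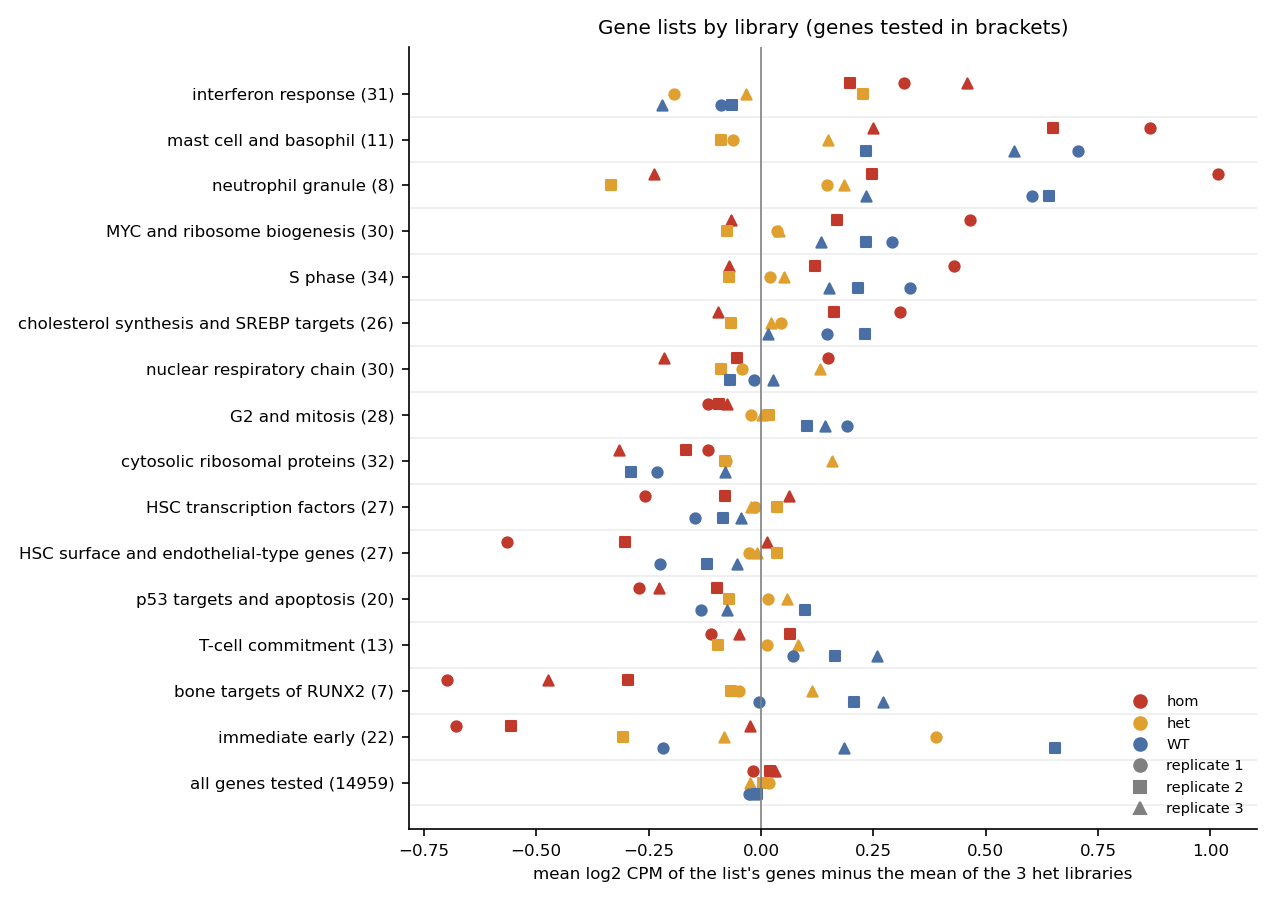
Mean log2 CPM of the members of 15 gene lists, and of all genes tested, in each HSC library relative to the mean of the 3 het libraries (x axis, log2 units; colours are genotypes, symbols are replicates). S phase, MYC and HSC surface lists spread across the hom libraries, whereas the G2 and mitosis list keeps the hom libraries between -0.12 and -0.07.

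The interferon response was the list with the most members higher in hom. Of 31 tested genes, 15 were higher and 0 lower at an unadjusted p under 0.05, 30 had a positive log2 value, and the median was log2 0.25. List means were 0.32, 0.20 and 0.46 in hom libraries, -0.19, 0.23 and -0.03 in het libraries and -0.09, -0.06 and -0.22 in WT libraries. Het library 2 thus lay inside the hom range. The count was 11 without hom library 1 and 8 without hom library 3. Isg15, a ubiquitin-like modifier, had 62.5, 46.1 and 47 CPM in hom libraries, against 29.8, 40.6 and 38.4 CPM in het libraries (log2 0.52 ± 0.14). Mx1, a GTPase that restricts viruses, had 49.2, 44.6 and 51.9 CPM in hom libraries, against 27.5, 37.5 and 25.2 CPM in het libraries (log2 0.70 ± 0.18), and Usp18, which removes ISG15 from proteins, had 64.6, 56 and 69.7 CPM in hom libraries, against 39.9, 52.2 and 45.4 CPM in het libraries (log2 0.47 ± 0.14). All hom libraries were above all het libraries for the 3 genes. Irf7, the factor that amplifies interferon production, had 325, 265 and 342 CPM in hom libraries, against 205, 290.2 and 251 CPM in het libraries and overlapped (log2 0.32 ± 0.12). Isg15 and Usp18 share over 5% of their exon bases with other genes, whose reads were not counted, and their levels are uncertain to that extent. In HPC, 1 of the 31 genes was called higher and 6 lower in hom than in het, beside 3.63% and 5.77% of all genes tested there.

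**Figure D5:**
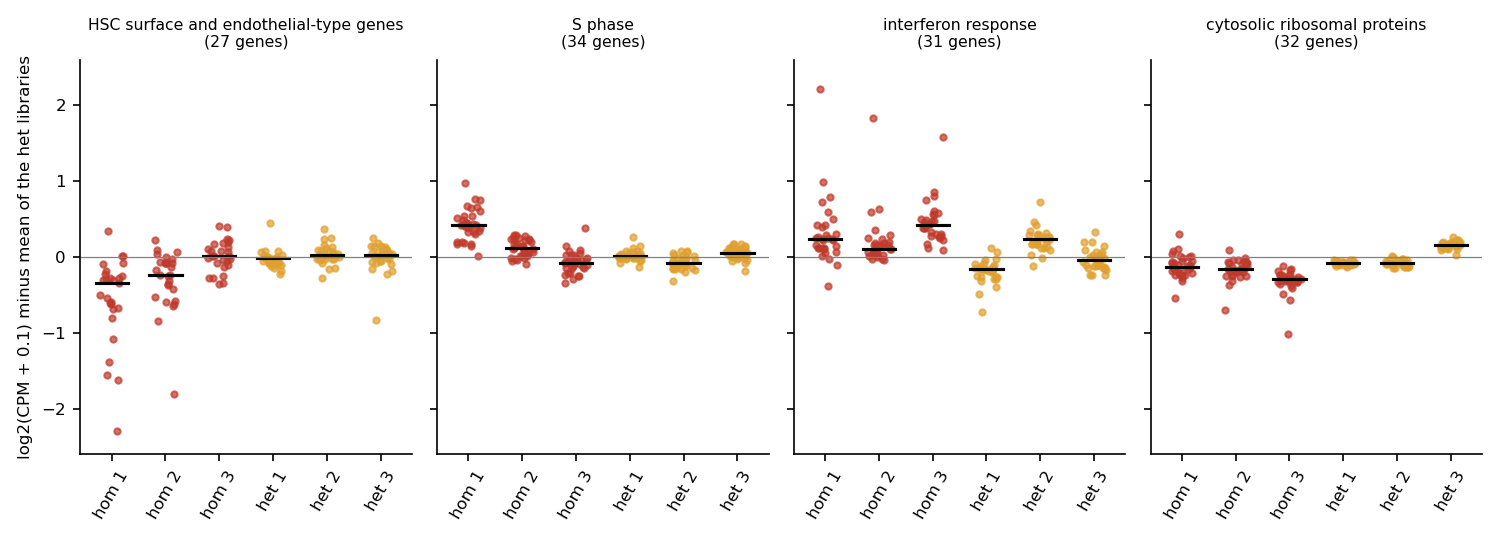
Each point is 1 gene of the list named above the panel, plotted as log2(CPM + 0.1) minus its mean over the 3 het libraries, in the 3 hom and 3 het libraries; black lines are medians. The hom libraries spread from each other in the first 2 panels; nearly all interferon genes lie above 0 and nearly all ribosomal protein genes below 0 in hom.

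Cytosolic ribosomal protein genes had the opposite sign. Of 32 tested, 31 had a negative log2 value, 18 were lower and 0 higher at an unadjusted p under 0.05, and the median was log2 -0.19. Their means were -0.12, -0.17 and -0.32 in hom and -0.08, -0.08 and 0.16 in het libraries, and -0.23, -0.29 and -0.08 in WT libraries, so that het library 3 was the highest of the 9 and hom library 3 the lowest. Rpl38, a protein of the large subunit, had 96.3, 86.5 and 69.5 CPM in hom libraries, against 136, 142 and 143 CPM in het libraries (log2 -0.74 ± 0.16). Rpl30, another, had 542, 538 and 481 CPM in hom libraries, against 652, 652 and 715 CPM in het libraries (log2 -0.37 ± 0.09). The count was 22 without hom library 1 and 8 without hom library 3. These genes are short, and short genes as a class moved with the same libraries. Over the 3330 shortest of 9990 genes with a mean log2 CPM above 3, the median log2 value was -0.05, beside -0.01 for those of middle length and 0.03 for the longest. For the 3330 shortest genes, the medians relative to het were 0.02, -0.05 and -0.12 in hom libraries 1, 2 and 3, against -0.03, -0.06 and 0.09 in het libraries. With the trend on gene length removed from each library, 20 genes were called (0.134%; 12 or 0.0802% higher, 8 or 0.0535% lower) and none was a ribosomal protein of the list. The part of gene length in the list's difference was not tested further.

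Mitotic genes were slightly lower in each of the 3 hom libraries. The G2 and mitosis list had means of -0.12, -0.09 and -0.07 in hom libraries, -0.02, 0.02 and 0.00 in het libraries and 0.19, 0.10 and 0.14 in WT libraries. Of 28 genes, 10 had all hom libraries below all het libraries, beside 8.57% of all genes tested, and 7 were lower and 0 higher at an unadjusted p under 0.05 (median log2 -0.09). Ccnb1, cyclin B1, had 70.2, 75.2 and 73.1 CPM in hom libraries, against 83.9, 85.7 and 92.1 CPM in het libraries and 100.5, 100.4 and 100.0 CPM in WT libraries (log2 -0.26 ± 0.07). Ube2c, the ubiquitin-conjugating enzyme of the anaphase-promoting complex, had 57, 61.7 and 60.2 CPM in hom libraries, against 69.7, 68 and 82.5 CPM in het libraries (log2 -0.30 ± 0.09). Levels of Ccnb1 ran lowest in hom, between in het and highest in WT with no overlap. The same list had 8 genes called higher and 0 lower in hom than in het HPC, beside 3.63% and 5.77% of all genes.

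Immediate early genes, which cells induce within minutes of stimulation, were low in hom libraries 1 and 2. The list means were -0.68, -0.56 and -0.03 in hom libraries, 0.39, -0.31 and -0.08 in het libraries and -0.22, 0.65 and 0.18 in WT libraries, a spread within every genotype. Of 22 tested genes, 5 were lower and 0 higher at an unadjusted p under 0.05 (2 without hom library 1, 6 without hom library 3), and the median was log2 -0.27. Jun had 19.3, 22 and 40.1 CPM in hom libraries, against 93.3, 65.2 and 80.4 CPM in het libraries (log2 -1.55 ± 0.42 SE, edgeR adjusted p = 0.245), and Dusp1, a phosphatase that switches off MAP kinases, had 15.7, 17.9 and 28.2 CPM in hom libraries, against 48.2, 27.1 and 37.6 CPM in het libraries (log2 -0.87 ± 0.32). Jun did not overlap between hom and het, but WT library 1 was near the hom level (33.2, 80.8 and 77.5 CPM). The p53 targets and apoptosis list had means of -0.27, -0.10 and -0.23 in hom and 0.01, -0.07 and 0.06 in het libraries, and 5 of 20 genes were lower and 0 higher. Ccng1, cyclin G1, had 103, 136 and 148 CPM in hom libraries, against 168, 176 and 173 CPM in het libraries (log2 -0.42 ± 0.11). Zmat3, an RNA-binding protein gene induced by p53, had 25.3, 39.3 and 49.6 CPM in hom libraries, against 52, 60.2 and 60.6 CPM in het libraries (log2 -0.60 ± 0.19). Hom library 1 was the lowest for both.

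The T-cell commitment list had few tested members, and Tox and Tcf7 among them were ordered by genotype. Of 13 tested genes of 24, 5 had a positive log2 value, and 3 were lower and 1 higher at an unadjusted p under 0.05. Tox, a chromatin factor required for CD4 T-cell development, had 7.76, 7.74 and 8.3 CPM in hom libraries, against 11.9, 12.3 and 13.1 CPM in het libraries and 22.6, 16.9 and 17.3 CPM in WT libraries (log2 -0.65 ± 0.14 SE, edgeR adjusted p = 0.115). Tcf7, which encodes TCF1, the factor that starts the T-cell program, had 7.37, 6.41 and 5.66 CPM in hom libraries, against 10.5, 9.24 and 8.61 CPM in het libraries and 10.9, 14.7 and 11.1 CPM in WT libraries (log2 -0.55 ± 0.17 SE, edgeR adjusted p = 0.239). Thy1, a surface glycoprotein of T cells and some stem cells, had 23.4, 20.1 and 17.5 CPM in hom libraries, against 29.5, 25.3 and 35.7 CPM in het libraries and 36.4, 35.9 and 30.0 CPM in WT libraries (log2 -0.57 ± 0.14 SE, edgeR adjusted p = 0.166). Hom was below het in all libraries for the 3 genes, and WT was above het without overlap for Tox and Tcf7. Il18r1, from the cytotoxic and innate lymphoid list, had 2.68, 3.2 and 2.49 CPM in hom libraries, against 6.04, 5.21 and 5.36 CPM in het libraries and 11.9, 11.7 and 8.6 CPM in WT libraries (log2 -0.99 ± 0.20 SE, edgeR adjusted p = 0.0818), which is the same order of genotypes. Its promoter window is printed above. The means of the T-cell commitment list were -0.11, 0.06 and -0.05 in hom and 0.01, -0.10 and 0.08 in het libraries, with an overlap. The median of that list was log2 -0.07.

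Serpinh1 and Serpinf1, genes of the bone program, were low in hom. Of 16 entries in the list of bone targets of RUNX2, 7 had counts enough to be tested, 2 were lower and 1 higher at an unadjusted p under 0.05, and the median was log2 -0.53. Serpinh1, the collagen chaperone, had 2.96, 3.8 and 6.33 CPM in hom libraries, against 8.95, 10.7 and 9.52 CPM in het libraries and 8.78, 13.5 and 13.1 CPM in WT libraries (log2 -1.15 ± 0.25 SE, edgeR adjusted p = 0.102). Serpinf1, which encodes a secreted inhibitor of blood vessel growth, had 2.79, 5.17 and 7.01 CPM in hom libraries, against 8.95, 11.6 and 12.2 CPM in het libraries and 11, 13.5 and 15.3 CPM in WT libraries (log2 -1.12 ± 0.26 SE, edgeR adjusted p = 0.136). Spp1, osteopontin, went the other way with 18.3, 20.4 and 25.2 CPM in hom libraries, against 13.3, 16 and 17.9 CPM in het libraries (log2 0.44 ± 0.14 SE, edgeR adjusted p = 0.25). Hom and het did not overlap for the 3 genes, and Spp1 had the opposite sign to the other two. The 92 tested genes within 5 Mb of Runx2 on chromosome 17 had a median of log2 0.00, with 5 higher and 3 lower.

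Lineage lists beyond these had few tested members and small or uneven shifts. In the mast cell and basophil list, 4 of 11 were higher and 0 lower, with means of 0.87, 0.65 and 0.25 in hom, -0.06, -0.09 and 0.15 in het and 0.70, 0.23 and 0.56 in WT libraries. The basophil protease gene Mcpt8 had 3.13, 2.29 and 0.882 CPM in hom libraries, against 0.774, 0.639 and 0.956 CPM in het libraries (log2 1.40 ± 0.51), and Cpa3, a carboxypeptidase of mast cells that shares over 5% of its exon bases with other genes, had 6.75, 8.06 and 2.59 CPM in hom libraries, against 3.17, 3.69 and 3.87 CPM in het libraries (log2 0.70 ± 0.32). In hom library 3 neither exceeded the het range. Progenitor and lymphoid priming genes had 2 higher and 3 lower of 16. Among them Cd48, a marker of progenitors, had 239, 215 and 204 CPM in hom libraries, against 173, 169 and 184 CPM in het libraries (log2 0.32 ± 0.08), and Wnt10b, a Wnt ligand, had 19.9, 18.5 and 11.1 CPM in hom libraries, against 28.4, 20.7 and 22.1 CPM in het libraries (log2 -0.53 ± 0.19). The monocyte and macrophage list had 2 higher and 2 lower of 14. Apoe, apolipoprotein E, had 45.2, 72.5 and 90.8 CPM in hom libraries, against 112, 101 and 118 CPM in het libraries and 60.4, 69.6 and 76.1 CPM in WT libraries (log2 -0.66 ± 0.21), and F13a1, a coagulation factor subunit of monocytes and platelets, had 3.63, 2.98 and 3.32 CPM in hom libraries, against 1.44, 1.33 and 1.46 CPM in het libraries (log2 1.23 ± 0.28). Het stood at one end for both, with WT nearer to hom. The dendritic cell and MHC class II list had 1 higher and 2 lower of 15, the megakaryocyte and platelet list 2 higher and 1 lower of 18, the erythroid list 0 higher and 2 lower of 9, and the endothelial and stromal list 0 higher and 1 lower of 8. Of the B-lymphoid list 1 was higher and 0 lower of 6, of the cytotoxic and innate lymphoid list 0 higher and 3 lower of 8, and of the eosinophil list 2 higher and 0 lower of 2. The neutrophil granule list had 1 higher and 0 lower of 8.

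Signalling and stress lists had between 0 and 4 members past the unadjusted threshold in either direction. Cytokine receptors had 4 higher and 3 lower of 27, with a median of log2 0.01. Among them Il3ra, a chain of the interleukin-3 receptor, had 42.7, 40.2 and 37.2 CPM in hom libraries, against 33.6, 30.2 and 33.6 CPM in het libraries (log2 0.30 ± 0.09), and Il6ra, a chain of the interleukin-6 receptor that shares over 5% of its exon bases with other genes, had 20.4, 19.7 and 17.1 CPM in hom libraries, against 15.4, 16.3 and 11.1 CPM in het libraries (log2 0.42 ± 0.15). Both were above all het libraries in each hom library. Integrins and adhesion genes had 4 higher and 2 lower of 27, and Itgal, a chain of the integrin LFA-1, had 273, 197 and 134 CPM in hom libraries, against 134, 104 and 139.9 CPM in het libraries (log2 0.68 ± 0.23), with hom library 3 inside the het range. The integrated stress and unfolded protein response list had 0 higher and 4 lower of 23, the list of STAT5 feedback and survival genes 1 higher and 3 lower of 22, and that of G1 cyclins and CDK inhibitors 1 higher and 2 lower of 16. Glycolysis and hypoxia genes had 1 higher and 2 lower of 24, NF-kappaB and inflammatory genes 0 higher and 1 lower of 23, heat shock genes 0 of 14 in either direction, and mitochondrially encoded genes 0 of 10 in either direction. The list of RUNX genes and partners had 1 higher and 0 lower of 12. Nuclear retained RNAs and histone transcripts had 2 higher and 1 lower of 9, and Malat1, a long noncoding RNA retained in the nucleus, had 689.7, 964 and 1310.5 CPM in hom libraries, against 444, 701 and 499 CPM in het libraries (log2 0.85 ± 0.23), with the highest level in hom library 3.

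The same comparison in HPC gave many more calls, from libraries of 16663497 to 21058030 counts. Of 13855 genes tested there, 1303 were called (9.4%), 503 higher (3.63%) and 800 lower (5.77%) in hom than in het. Runx2 fell there too (log2 -2.14 ± 0.07, edgeR adjusted p = 3.91e-13). Of the 503 higher genes, 465 were also tested in HSC and 319 of these (68.6%) had a positive log2 value there, beside 50.2% of all 13493 genes tested in both. Their median in HSC was log2 0.09, against log2 0.33 in HPC. Of the 800 lower genes, 777 were tested in HSC and 577 (74.3%) had a negative value, with a median of log2 -0.12 in HSC and log2 -0.42 in HPC. The HSC and HPC comparisons share no library. Il18r1 (log2 -1.70 ± 0.17, edgeR adjusted p = 1.93e-05), Tox (log2 -1.13 ± 0.13, edgeR adjusted p = 3.15e-05), Tcf7 (log2 -1.26 ± 0.19, edgeR adjusted p = 0.000362), Itsn1 (log2 -0.83 ± 0.07, edgeR adjusted p = 3.17e-06) and Mpzl1 (log2 -0.84 ± 0.12, edgeR adjusted p = 0.000182) fell in hom HPC as well. Ly9 (log2 0.15 ± 0.10, edgeR adjusted p = 0.412), Tlr7 (log2 -0.05 ± 0.09, edgeR adjusted p = 0.77) and Rps27 (log2 0.02 ± 0.07, edgeR adjusted p = 0.911) were not called there, nor in HSC. The difference between the 2 cell types was itself called for 81 of 15431 genes (0.525%). Tlr7 and Rps27 were among them (edgeR adjusted p = 0.0355 for both). Ly9 was not (HSC effect minus HPC effect log2 0.45 ± 0.15, edgeR adjusted p = 0.22). The Y-linked gene Ddx3y had counts only in HSC libraries. Cell type and donor sex thus cannot be told apart in any comparison of HSC with HPC given here.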

How the data were processed

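Polyadenylated RNA was measured, and the deposited values are raw counts of read pairs per gene, 1 table per cell type with 49997 genes. Per the file headers, the authors made these counts with featureCounts 2.0.6, ignoring strand and summing a gene's exons. Per the submitters' processing notes, reads passed FastQC, Trim Galore 0.6.10 and STAR 2.7.11a. These notes name mm39 and the headers an mm10 annotation, whose coordinates are given. Reads over exons shared by genes were not counted for either, and reads of copies on alternate contigs can be lost, which lowers such genes. The 2 CUT&Tag samples were not analysed here.

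In R 4.3.3, counts filtered with filterByExpr and scaled with TMM factors entered a robust quasi-likelihood F test in edgeR 4.0.16 over the 9 HSC libraries, which share 1 estimate of the spread, with hom minus het as contrast and Benjamini-Hochberg adjustment over all 14959 genes. CPM use the TMM factors, log2 CPM a prior count of 2. Values after ± are the SE of the fit. The HPC fit used 9 libraries, and the difference between cell types 18. No 2 libraries were identical. The fit was first run on simulated counts.

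Genes were named by rule: the sort markers, Cbfb and the RUNX genes, the called genes, the 12 higher and 12 lower genes with the smallest p among those that did not overlap and reached 5 CPM (without predicted genes), up to 4 members of each list by p, and 6 genes above and 6 below in each hom library by gap. Other list members named in the text were chosen after their values were seen, and some genes the rule names are not reported here. The 36 lists (35 written, with 772 entries, all found, and 1 by position) exclude Runx2 from counts and means. The comparison, members and lists were chosen with earlier results of these data known. The alternatives were DESeq2 1.42.0, limma 3.58.1 voom with and without sample quality weights, other scalings and filters, the 6 libraries alone, a replicate block and leaving out each HSC library. For HPC and for the difference between cell types fewer alternatives were run, and only hom and het replicates were left out. Added after seeing the data were the removal of a trend on gene length and list counts without hom library 1 or 3.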

Additional observations from a re-analysis of the deposited data

Results flagged for a closer look

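For 14 named genes the hom minus het effect differed between HSC and HPC in the fit of all 18 libraries (edgeR, adjusted p between 0.0162 and 0.0425). Over all 15431 genes tested the share was 0.525%. Many named genes were picked by their p in the HSC comparison, whose libraries also enter this fit. The count of 14 is therefore no measure of an excess. The value given is the HSC effect minus the HPC effect in log2 units. It was positive for Tlr7 (1.08), Ifi209 (1.60), Ifi206 (1.01), Flt3 (0.66) and Cd200r3 (2.98). Flt3, a cytokine receptor of multipotent progenitors, had log2 0.15 ± 0.08 in HSC and fell in HPC (log2 -0.52 ± 0.08, edgeR adjusted p = 0.000767). Cd200r3, a receptor of basophils, was at or near the floor of 3 counts in het HSC (0.0737, 0.0492 and 0.166 CPM), so its fitted value is no bound. Runx2 was also positive (0.44), since it fell more in HPC than in HSC.

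Negative values were found for Aqp1 (-1.32), Zbtb16 (-0.96), Rps27 (-0.64), Rpl39 (-0.63), Ccnb1 (-0.46), Nusap1 (-0.40), Actr3b (-1.69) and Slamf1 (-1.07). Aqp1, a water channel of red cells, rose in hom HPC (log2 0.85 ± 0.13, edgeR adjusted p = 0.001), as did Zbtb16, the factor PLZF (log2 0.40 ± 0.09, edgeR adjusted p = 0.0119), and Slamf1 (log2 0.90 ± 0.20, edgeR adjusted p = 0.00819). In HSC the same 3 genes had log2 -0.45 ± 0.22, log2 -0.55 ± 0.21 and log2 -0.16 ± 0.12. Nusap1 shares over 5% of its exon bases with other genes, so its level is uncertain. Ddx3y, a Y-linked gene, had counts in 9 of 9 HSC and 0 of 9 HPC libraries, so cell type and donor sex cannot be told apart here. The calls moved with single replicates left out of both cell types, as given under the processing.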

How the results depend on the processing

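Runx2 kept its direction and call in all 20 alternatives (log2 -1.74 to -1.61). The count of called genes, 2 in the 9-library fit, was 160 with DESeq2, 1 with limma voom, 614 with sample quality weights, 511 with no filter on low counts, 1 with the 6 hom and het libraries alone and 20 with the gene-length trend removed. All 20 of the last were also called by DESeq2, with quality weights, without a filter and without hom library 3. Leaving out 1 library gave 1 to 408 calls: 408 without hom replicate 3, 8 without hom replicate 1, 5 without WT replicate 3, 4 without het replicate 2, 2 without hom replicate 2 and 1 without any other. The cause was not tested. RLE factors, library size alone, a minimum of 1 CPM and a fit that was not robust left it at 2. Correlations of same-numbered libraries, as deviations from their group mean, were uneven. They were 0.03, -0.15 and -0.33 for hom and het, -0.03, -0.03 and 0.10 for het and WT, and 0.32, 0.19 and 0.25 for hom and WT. In HPC those of hom and het were -0.01, 0.37 and -0.02. Whether replicate numbers pair the samples was not tested further. With the replicate block, 2 genes were called, Runx2 and 1 other in place of Gm4258. The HPC count of 1303 ran between 701 (without het replicate 2) and 1179 with 1 hom or het library left out. It was 797 without hom replicate 3. The count of 81 genes whose effect differed between cell types was 263 with DESeq2. With 1 hom or het replicate left out of both cell types at once, it was 3 to 210 (210 without hom replicate 1, 18 without het replicate 3, 5 without het replicate 2 and 3 without hom replicate 2 or het replicate 1). With the replicate block the counts for HPC and for the difference were 1463 and 96.

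Gm4258 kept its direction throughout and lost its call in 9 alternatives (log2 0.90 to 0.95). Signs changed for 5 uncalled genes. Cbfb ran between -0.0069 (without hom replicate 1) and 0.14 with 1 library left out, Elane between -0.52 (without hom replicate 1) and 1.69, and Kit between -0.0030 (without hom replicate 3) and 0.096, with -0.00074 without het replicate 3. With quality weights Slamf1 had 0.019 and ND5 -0.00026. Of 3208 values of 161 named genes, 263 passed the threshold where the 9-library fit did not. Of 720 list medians, 54 moved by more than the SD of the hom libraries. Depth limits what can be said of genes near 3 counts, such as Cd200r3.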

Other observations

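Several of the genes nearest the threshold lie close together on chromosome 1, which was noticed after their values were seen. Mpzl1, Ly9, Ifi206 and Ifi209 lie between 165 and 174 Mb (mm10), a stretch bounded by these genes themselves. Of 90 genes tested in that stretch, 6 had an unadjusted p under 0.001 (6.67%), beside 12 of 853 on the whole chromosome (1.41%) and 96 of 14959 in all (0.642%). Mpzl1, Ly9, Ifi206 and Ifi209 are themselves among the 6. Since their small p chose the stretch, its share is no measure of an excess. At an unadjusted p under 0.05, 11 genes had higher and 3 had lower levels in hom, and the median over the 90 genes was log2 -0.01. On the X chromosome 8 of 508 genes had a p under 0.001 (1.57%). On chromosome 17, which carries Runx2, the share was 4 of 801 (0.499%).

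Deviations of hom libraries 1 and 3 from the hom mean were mirror images over 9990 genes with a mean log2 CPM above 3 (r = -0.89 across genes, which are not independent and whose deviations sum to 0 over the 3 libraries). Between hom 1 and 2 the value was -0.17, and between hom 2 and 3 it was -0.30.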
